A study of Mus musculus with 12 samples.

Results

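The genes described here encode the leukocyte integrin chains of the beta2 and beta7 families: the beta chains Itgb2 and Itgb7 and the alpha chains Itgal, Itgam and Itgax. They were chosen by name, as the rows of the gene count table that carry 1 of these 5 symbols, and make up 5 of the 54532 genes in the table. All 5 had enough counts to be tested, as did 13800 genes in all. Integrins are cell-surface receptors built from 1 alpha and 1 beta chain. Itgb2 encodes CD18, the beta2 chain shared by LFA-1 (with the Itgal product, CD11a), Mac-1 or complement receptor 3 (with the Itgam product, CD11b) and p150,95 or complement receptor 4 (with the Itgax product, CD11c), which serve leukocyte adhesion to ICAMs and the uptake of complement-coated particles. Itgb7 encodes the beta7 chain, which pairs with alpha4 (Itga4) to bind MAdCAM-1 and VCAM-1 and with alphaE (Itgae) to bind E-cadherin, and is best known from lymphocytes homing to the gut. In cells, inside-out signals through talin, kindlin-3 and Rap1 switch these receptors to their binding form, and bound receptors signal back through Src-family kinases and Syk.

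The study sequenced poly-A RNA of bone marrow-derived macrophages (BMMs), grown with M-CSF at 50 ng/mL from the marrow of male mice aged 8 weeks. Genotypes are named in the labels as Itga9-Lyz2-cHet and Itga9-Lyz2-cKO (cHet and cKO from here on), and cells of each genotype were either left as controls or exposed for 2 hours to what the labels call Pg (MOI 1:20). The 4 groups, cHet control, cHet Pg, cKO control and cKO Pg, held 3 libraries each, named here by group and replicate number. All 12 libraries thus come from mice whose genotype name carries Lyz2, a gene of myeloid cells whose locus is widely used to drive Cre recombinase, and none is from a mouse without that name. The labels do not tell whether the libraries of a group were separate mice or cultures, so the p-values reflect how much these particular libraries vary, and that variation may be technical only.

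Library totals ran from 14527674 to 16793803 counts. Itga9, the gene named in the genotypes, was lower in all 6 cKO libraries (5.98 to 13.6 CPM, counts scaled to a common library size) than in any cHet library (17.9 to 34.0 CPM), and Lyz2 was lower in them too, by 0.97 ± 0.06 (SE) on the log2 scale on average (adjusted p = 6.44e-08, edgeR quasi-likelihood test). The macrophage markers Csf1r (3960 to 5408 CPM) and Adgre1 (1221 to 1644 CPM) were abundant in every library, and the T-cell receptor genes Cd3d, Cd3e and Cd3g stayed at or below 0.422 CPM. Of the 10 neutrophil markers, which summed to between 827 and 1145 CPM, Csf3r (383 to 466 CPM), S100a9 (154 to 258 CPM) and S100a8 (91.1 to 166 CPM) were the highest, Mpo, Ltf, Elane, Camp and Retnlg were also detected, and Ly6g and Cxcr2 stayed at or below 4.23 CPM. The part of such cells in the levels below was not tested. Libraries of 1 group did not all resemble each other: the leading principal component of within-group differences, computed over 2000 genes without the integrin members, held 24.2% of that variance. It was negative in cHet control 1, cHet Pg 2 and 3, cKO control 1 and cKO Pg 1 and 2 and positive in the other 6 libraries, so each control group had 1 library on its negative side and each Pg group 2. The values of Itgax below follow the same division, and results are therefore also given with libraries left out in turn where that changes a call.

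Itgam and Itgax lie close together on chromosome 7, with 11055 bases and 1 annotated gene between them. Between libraries of 1 group Itgax varied far more than Itgam, so the stretch around the start of each is shown. Each runs from 250 bases before to 50 after the transcription start, from RefSeq on GRCm38.p6, plus strand, chr7:128062390-128062689 for Itgam and chr7:128129300-128129599 for Itgax. Capitals mark matches to 3 short motifs, searched on both strands: GAGGAA (the core of the site of PU.1, the product of Spi1), TGAGTCA (AP-1) and TGTGGT (RUNX factors).
Itgam: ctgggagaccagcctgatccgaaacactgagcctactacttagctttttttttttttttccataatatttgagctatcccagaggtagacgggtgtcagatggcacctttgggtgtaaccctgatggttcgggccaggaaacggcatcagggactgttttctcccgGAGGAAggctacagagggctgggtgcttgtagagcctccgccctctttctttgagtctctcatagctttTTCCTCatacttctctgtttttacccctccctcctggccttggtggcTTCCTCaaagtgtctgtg
Itgax: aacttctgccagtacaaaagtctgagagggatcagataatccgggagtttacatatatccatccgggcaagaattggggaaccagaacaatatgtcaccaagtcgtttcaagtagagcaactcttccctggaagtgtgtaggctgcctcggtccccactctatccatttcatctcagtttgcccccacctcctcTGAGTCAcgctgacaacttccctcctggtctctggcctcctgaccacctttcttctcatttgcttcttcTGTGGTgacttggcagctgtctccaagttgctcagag
The Itgam stretch held GAGGAA 3 times, beginning 84 bases before the start (plus strand), 15 bases before it and at base 33 after it (both minus strand, printed as TTCCTC), and neither of the other motifs. The Itgax stretch held TGAGTCA once, 56 bases before the start, and TGTGGT once, at base 14 after it, and no GAGGAA. No matches overlapped. Of 32851 mouse promoter stretches of the same 300 bases, 28.3% held GAGGAA, 5.2% TGAGTCA and 16.8% TGTGGT. A match describes the letters, and whether it is bound was not tested. The Itgb7 stretch (chr15:102231886-102232185, minus strand) held GAGGAA once and neither other motif, and Itgb2 and Itgal were not in the promoter table.

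In mm10, the build of the counts, Itgal (ENSMUSG00000030830) occupies chr7:127296260-127335138, Itgam (ENSMUSG00000030786) chr7:128062640-128118491 and Itgax (ENSMUSG00000030789) chr7:128129547-128150657, all on the plus strand. Itgad (ENSMUSG00000070369), which encodes the remaining beta2 partner, alphaD, follows 3718 bases after Itgax. Itgb2 (ENSMUSG00000000290) lies on the plus strand at chr10:77530252-77565708, and Itgb7 (ENSMUSG00000001281) on the minus strand at chr15:102215995-102231944. Counts cover whole genes. No annotated gene overlapped Itgb2, Itgal, Itgax or Itgb7, and the 1 overlapping Itgam, Gm49368, had 33 counts over the 12 libraries. Itgam, Itgax and Itgad encode similar proteins, and how reads mapping to several places were counted is not given in the sources used here.

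Levels were compared between genes per kilobase of gene length (CPM per kb). Itgb2 was the highest, with a median of 260 CPM per kb (183 to 324 over the 12 libraries), on a scale where Itgal stood at 46.6 (31.9 to 64.5), Itgam at 34.7 (27.5 to 41.9), Itgax at 16.9 (7.54 to 28.6) and Itgb7 at 9.67 (7.09 to 13.7). Only Itgb2 was separate from every other member in all libraries, since the ranges of Itgal and Itgam, of Itgam and Itgax, and of Itgax and Itgb7 overlapped. Within controls Itgal was above Itgam in each of the 6 libraries, with 51.7 ± 2.59 against 28.6 ± 1.72 CPM per kb in cHet (SD, n = 3) and 61.4 ± 2.68 against 33.8 ± 2.84 in cKO. Under Pg the means were 33.5 ± 1.71 for Itgal and 36.6 ± 2.99 for Itgam in cHet, where the order differed between libraries, and 41.1 ± 3.29 and 36.3 ± 5.70 in cKO, where Itgal stayed above Itgam in all 3 libraries. Every member was well counted, the least of them, Itgb7, with 330 to 540 counts per library and Itgb2 with 9459 to 14321.

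**Figure D1:**
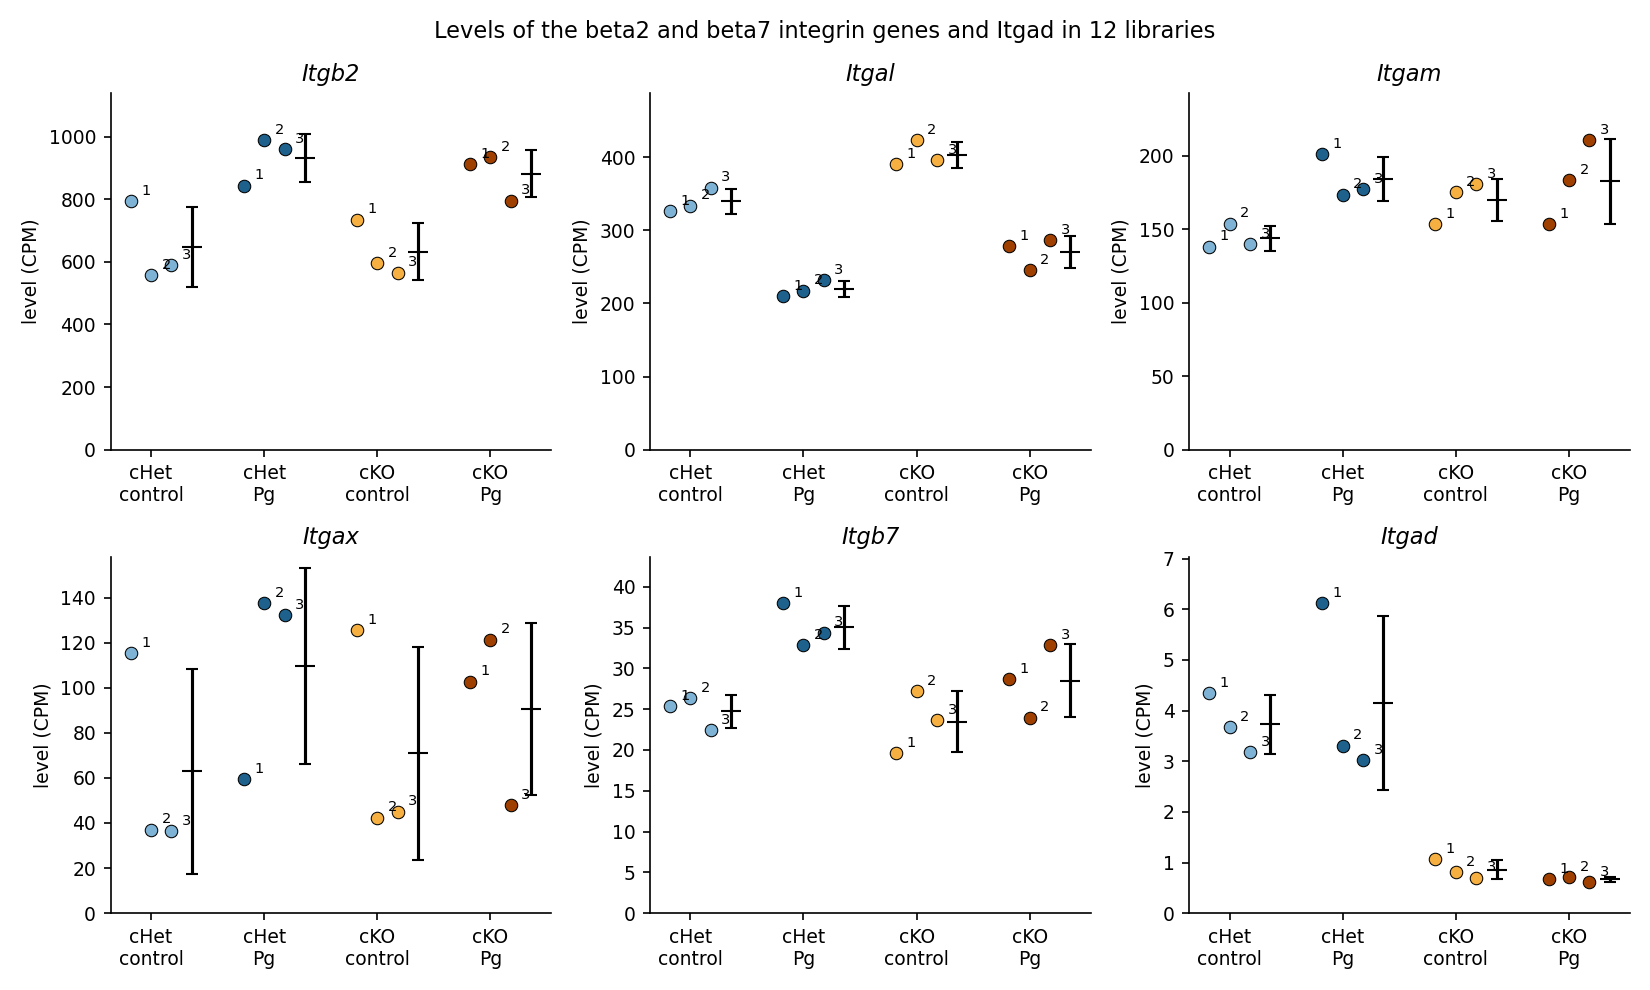
Level of each integrin gene and of Itgad in the 12 libraries, in CPM on TMM-scaled library sizes, by group. Points are libraries with their replicate number, and the bar beside each group is the mean ± SD of its 3 libraries. Itgb2 is higher and Itgal lower in all Pg libraries than in the controls of the same genotype, Itgax spreads from 36.2 to 137 CPM within and between groups, and Itgad is at or below 1.07 CPM in every cKO library.

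After 2 hours of Pg, transcripts of the shared chain Itgb2 rose in both genotypes and those of the LFA-1 alpha chain Itgal fell in both. Itgam and Itgb7 rose in cHet, while in cKO neither passed the test, and Itgax passed it in neither genotype. In cHet, 3 of the 5 members were called higher and 1 lower at an adjusted p under 0.05, where 36.1% of all 13800 tested genes were called (18% higher and 18% lower). In cKO, 1 was called higher and 1 lower, where 34% of all genes were called (16.9% higher and 17.1% lower). Against this background the counts describe the members and are not particular to them. The median log2 difference of all genes was -0.007 in cHet and -0.004 in cKO.

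Itgb2 measured 793, 558 and 589 CPM in cHet controls 1 to 3 and 844, 989 and 959 CPM in cHet Pg. In cKO it measured 735, 595 and 565 CPM in controls and 912, 935 and 796 CPM under Pg. In both genotypes the lowest Pg library lay above the highest control, by a small margin, since replicate 1 was the highest control in each. The log2 fold change was 0.53 ± 0.14 (SE) in cHet (adjusted p = 0.0114, edgeR quasi-likelihood test) and 0.48 ± 0.14 in cKO (adjusted p = 0.019). In cHet the difference remained past the threshold with any 1 library left out (0.43 to 0.71). In cKO the adjusted p rose to 0.0737 without cKO control 2, 0.0717 without cKO control 3, 0.0611 without cKO Pg 1 and 0.0646 without cKO Pg 2, with log2 values of 0.44, 0.41, 0.45 and 0.43. Scaling by library size alone, which moves the median of all genes to -0.25 in both genotypes, gave 0.28 (adjusted p = 0.0983) and 0.24 (adjusted p = 0.164). In bulk RNA, fewer cells carrying a transcript and less of it per cell cannot be told apart, here and below.

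Itgal, the LFA-1 alpha chain that binds ICAMs, measured 326, 334 and 358 CPM in cHet controls and 210, 217 and 232 CPM in cHet Pg. In cKO it measured 391, 423 and 396 CPM in controls and 278, 246 and 287 CPM under Pg. All 3 Pg libraries of each genotype lay below all of its controls, and the cHet libraries were the lower in each state. Itgal fell by 0.63 on the log2 scale in cHet (SE 0.07, adjusted p = 2.08e-06, edgeR) and fell by 0.58 in cKO (SE 0.07, adjusted p = 5.45e-06). Both calls held under every alternative setting and with any 1 library left out. Among lymphocyte markers the summed T and NK cell list was higher under Pg (290 to 340 CPM in cHet, 279 to 323 in cKO) than in controls (132 to 211 and 162 to 219), nearly all of it Il7r (130 to 336 CPM over the libraries). Cd3d, Cd3e, Cd3g, Ncr1 and Gzma were each at 0 in at least 1 library and never above 0.422 CPM. The sum of the 4 eosinophil markers was also higher under Pg. It was at 36.3 to 50.6 CPM against 21.4 to 29.6 in cHet, and 27.2 to 33.1 against 15.9 to 25.1 in cKO. Of the 4, 1 was called higher in each genotype, beside 18% of all genes in cHet and 16.9% in cKO. Ccr3 rose from a mean of 6.14 to 21.2 CPM in cHet and from 3.23 to 15.4 CPM in cKO. Prg2 had a lower mean under Pg in cKO (11.5 against 13.8 CPM). The sum of the 9 dendritic cell markers was higher under Pg without overlap in cKO (23.8 to 33.6 against 17.9 to 23.1 CPM). In cHet the sum overlapped (26.9 to 27.4 against 20.0 to 28.1 CPM). Of the 9, 2 were called higher in cHet and 4 in cKO, beside the same shares of all genes. Kmo, the highest of them, had lower means under Pg, at 8.91 against 10.8 CPM in cHet and 8.97 against 10.0 CPM in cKO. The part of these cells in the Pg differences of the members was not tested.

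Itgam, the Mac-1 alpha chain, measured 138, 154 and 140 CPM in cHet controls and 201, 174 and 177 CPM in cHet Pg, so that the groups did not overlap. In cKO it measured 154, 175 and 181 CPM in controls and 153, 183 and 211 CPM under Pg, and the Pg range enclosed that of the controls. Its log2 fold change was 0.35 ± 0.10 in cHet (adjusted p = 0.0127, edgeR) and 0.10 ± 0.10 in cKO (adjusted p = 0.471, 95% interval -0.11 to 0.32). Leaving out cHet control 3 gave 0.33 (adjusted p = 0.0503) and leaving out cHet Pg 1 gave 0.28 (adjusted p = 0.0554), both short of a call. The same was true on library size alone (0.11, adjusted p = 0.396), where the cKO value turned to -0.14.

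Itgb7 was the least abundant member and followed a similar course. It measured 25.4, 26.4 and 22.4 CPM in cHet controls against 37.9, 32.8 and 34.4 CPM in cHet Pg, with no overlap, a log2 fold change of 0.50 ± 0.12 (adjusted p = 0.00428, edgeR). In cKO the controls at 19.6, 27.2 and 23.6 CPM overlapped the Pg libraries at 28.6, 24.0 and 32.9 CPM, and the log2 fold change of 0.28 ± 0.12 did not pass the test (adjusted p = 0.0958, 95% interval 0.016 to 0.55). It passed without cKO control 2 (0.40, adjusted p = 0.0289) and without cKO Pg 2 (0.39, adjusted p = 0.0284). On library size alone the cHet value was 0.26 (adjusted p = 0.103). Its usual partner Itga4 fell, by 0.41 in cHet (SE 0.11, adjusted p = 0.00907, edgeR) and by 0.45 in cKO (SE 0.11, adjusted p = 0.00537). Itga4 ranged from 257 to 326 CPM in cHet controls and from 201 to 254 CPM in cHet Pg. Its other partner, Itgae, had between 0 and 7 counts per library and was not tested.

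Itgax, the CD11c chain, measured 115, 37.0 and 36.2 CPM in cHet controls and 59.3, 137 and 132 CPM in cHet Pg. In cKO it measured 125, 42.4 and 45.1 CPM in controls and 103, 121 and 48.0 CPM under Pg. Every group held at least 1 library at or below 59.3 CPM and at least 1 at or above 103 CPM, so all 4 groups overlapped. The log2 fold change with Pg was 0.80 ± 0.66 in cHet (adjusted p = 0.397, edgeR, 95% interval -0.71 to 2.31) and 0.35 ± 0.66 in cKO (adjusted p = 0.738, interval -1.15 to 1.86). These intervals cover both a fall and a rise larger than those called for the other members. Leaving out 1 library moved the cHet value between 0.52 and 1.59 and the cKO value between 0.09 and 1.05, and none of these passed the test.

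The difference between the genotypes in their response to Pg was tested for each member by the interaction, the response in cKO minus that in cHet. None of the 5 was called, where 0.717% of all genes were, and none had an unadjusted p under 0.05 (edgeR, and no call with DESeq2 either). The interaction of Itgam was -0.25 ± 0.14 (adjusted p = 0.518, 95% interval -0.56 to 0.06) and that of Itgb7 -0.22 ± 0.18 (adjusted p = 0.675, interval -0.59 to 0.15). Those of Itgb2 (-0.05 ± 0.20) and Itgal (0.05 ± 0.10) were smaller, and that of Itgax was -0.45 ± 0.93. The calls of Itgam and Itgb7 in cHet without a call in cKO are therefore no shown difference between genotypes.

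**Figure D2:**
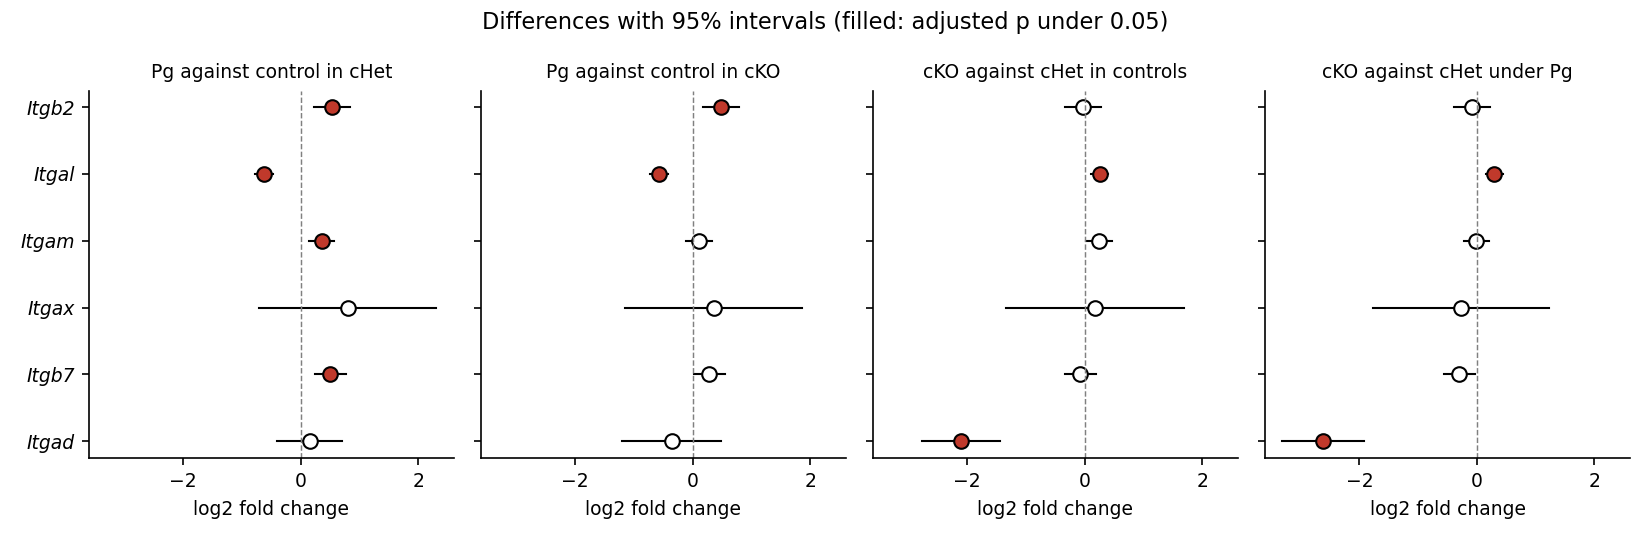
Log2 fold change of each integrin gene and of Itgad in the 4 comparisons between pairs of groups, with 95% intervals from the fit over all 12 libraries. Filled points passed an adjusted p under 0.05. Itgb2 and Itgal are filled on opposite sides of 0 in both Pg panels, Itgal alone of the 5 members is filled in both genotype panels, and the intervals of Itgax span more than 2 log2 units in every panel.

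Between genotypes, Itgal was the single member that passed the test. It was higher in cKO than in cHet among controls, by a log2 difference of 0.25 ± 0.07 (adjusted p = 0.0462, edgeR), and under Pg, by 0.30 ± 0.07 (adjusted p = 0.033). The cKO libraries lay above the cHet libraries without overlap in both states, with cKO control at 403 ± 17.6 against 339 ± 17.0 CPM and cKO Pg at 270 ± 21.6 against 220 ± 11.2 CPM (SD, n = 3). Averaged over both states the difference was 0.27 ± 0.05 (adjusted p = 0.00218). Of the 5 members, 1 was thus called in each comparison and 0 were lower. The background was 5.15% of genes called in controls (2.13% higher, 3.02% lower), 1.85% under Pg (0.652% higher, 1.2% lower) and 4.91% for the average (2.13% higher, 2.78% lower).

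The separate Itgal calls were close to the threshold. The call among controls was lost without any 1 of the 6 control libraries: cHet control 1 (0.23, adjusted p = 0.121), 2 (0.24, adjusted p = 0.134) or 3 (0.29, adjusted p = 0.0662), and cKO control 1 (0.27, adjusted p = 0.062), 2 (0.22, adjusted p = 0.147) or 3 (0.26, adjusted p = 0.11). The call under Pg was lost without cHet Pg 1 (0.27, adjusted p = 0.115), cHet Pg 2 (0.29, adjusted p = 0.126), cKO Pg 1 (0.28, adjusted p = 0.125) or cKO Pg 3 (0.25, adjusted p = 0.109). The average over both states remained called in all 18 alternatives, between 0.25 and 0.31, with an adjusted p of at most 0.00917. Summed stromal markers differed between the genotypes as well, at 36.7 to 47.4 CPM in cHet and 2.68 to 7.09 CPM in cKO libraries, with Lum at 0 in all 12. Their part in the Itgal difference was not tested.

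The other 4 members were not called between genotypes. The average log2 difference was -0.06 ± 0.10 for Itgb2 (95% interval -0.27 to 0.16), 0.11 ± 0.07 for Itgam (-0.04 to 0.27), -0.05 ± 0.46 for Itgax (-1.11 to 1.01) and -0.19 ± 0.09 for Itgb7 (-0.37 to -0.00097, adjusted p = 0.296). The interval of Itgax is the widest and allows a change of more than 1 log2 unit either way. Among controls Itgam was at 170 ± 14.3 CPM in cKO and 144 ± 8.63 in cHet (log2 difference 0.24 ± 0.10, adjusted p = 0.218), which passed only without the low-count filter (adjusted p = 0.0214).

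Itgad, the remaining beta2 partner, was scarce and differed more between genotypes than any of the 5 members. It had 78, 63 and 51 counts in cHet controls, 87, 47 and 45 in cHet Pg, 18, 13 and 12 in cKO controls and 10, 10 and 9 in cKO Pg. In CPM these are 3.01 to 6.11 in cHet and 0.62 to 1.07 in cKO, with no overlap. Itgad was lower in cKO by a log2 difference of -2.11 ± 0.31 in controls (adjusted p = 0.000492, edgeR) and -2.62 ± 0.33 under Pg (adjusted p = 0.000151), in every alternative run, and no Pg effect was called (0.15 ± 0.26 in cHet, -0.36 ± 0.40 in cKO). Cox6a2 and the antisense gene Gm44850 overlap Itgad on the other strand with 133 and 104 counts in all, and the strand setting of the counting is not given, so reads of these genes and of Itgad cannot be told apart. The summed stromal markers moved the same way (above), and their part was not tested.

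The alpha chains that pair with beta2 changed their proportions. Of the summed per-kilobase level of Itgal, Itgam and Itgax, Itgal made 55.6% ± 5.93 in cHet controls and 56.0% ± 4.31 in cKO controls, and 36.1% ± 1.74 in cHet Pg and 42.8% ± 4.38 in cKO Pg (SD, n = 3). By library it was between 49.1% and 60.7% in the 6 controls and between 34.4% and 45.7% in the 6 Pg libraries, without overlap. Itgam made 26.3% to 34.4% in controls and 32.4% to 47.5% under Pg, and Itgax 8.17% to 23.7% and 10.4% to 29.7%, both with overlap. The Itgb2 level over the summed alpha level was 2.26 ± 0.275 in cHet controls, 3.28 ± 0.0815 in cHet Pg, 1.88 ± 0.172 in cKO controls and 3.0 ± 0.24 in cKO Pg. All 6 Pg libraries (2.73 to 3.37) lay above all 6 controls (1.75 to 2.57). These ratios restate the levels above and were not tested, and transcript ratios are not amounts of receptor.

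**Figure D3:**
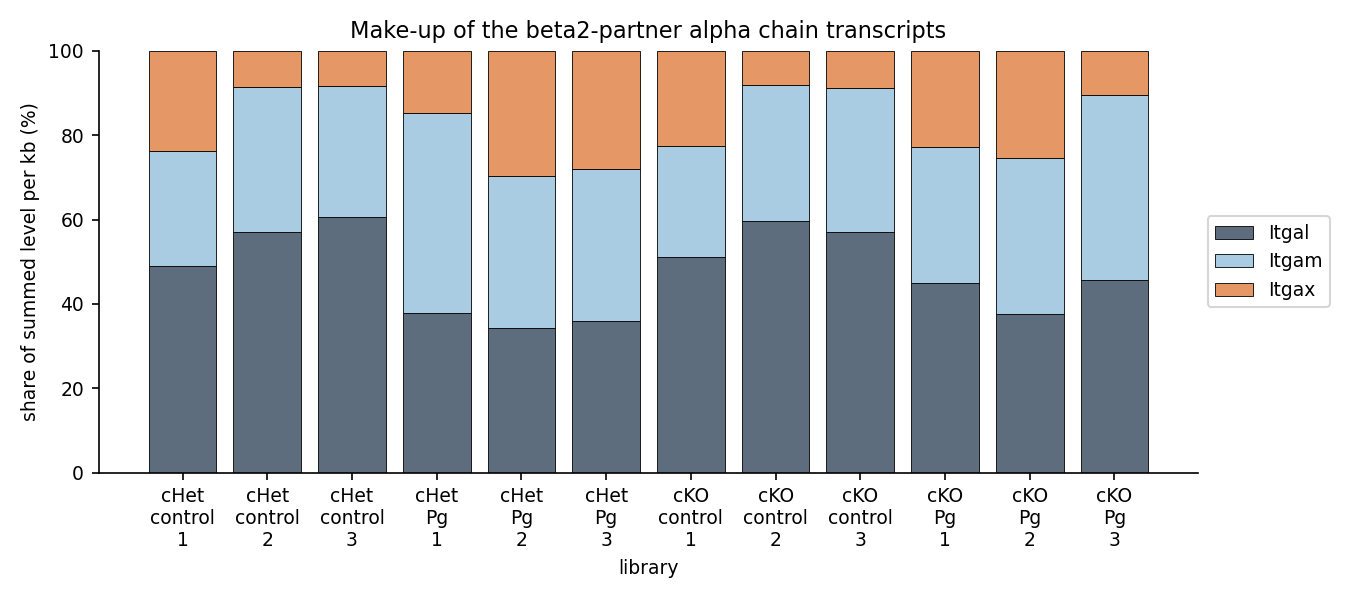
Share of Itgal, Itgam and Itgax in their summed level (CPM per kb of gene length) in each of the 12 libraries, in percent. Itgal takes at least 49.1% in every control library and at most 45.7% in every Pg library, and the Itgax segment differs from library to library within each group.

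Within groups, Itgax set itself apart from the other members. The SD of its log2 CPM between libraries of 1 group was 0.81, against 0.19 for Itgb2, 0.18 for Itgb7, 0.15 for Itgam, 0.08 for Itgal and a median of 0.17 over all tested genes. Only 105 of the 13800 genes (0.761%) varied more than Itgax, and among the 7910 with a mean of at least 10 CPM only Srp54b and Gm9824 did. Of these 7910, 13% varied more than Itgb2, 14.8% more than Itgb7, 26.5% more than Itgam and 70.6% more than Itgal. Ordered by level, the 12 libraries left a gap between 59.3 and 103 CPM, with 6 below and 6 above, and those above were the ones on the negative side of the within-group component described at the start. No label separates them.

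The genes whose profile over the 12 libraries was nearest to that of Itgax, by the root mean square (RMS) difference of log2 CPM after centring each gene, were Atp6v0d2 (0.118), Mmp12 (0.142) and Cd36 (0.158), of 7909 candidates with a median of 0.777. Atp6v0d2, a subunit of the vacuolar proton pump that is prominent in osteoclasts, measured 202, 77.6 and 74.0 CPM in cHet controls and 108, 224 and 209 CPM in cHet Pg. Mmp12, the macrophage elastase, measured 911, 322 and 281 CPM in cKO controls and 777, 934 and 391 CPM in cKO Pg. Cd36, a scavenger receptor, ranged from 336 to 1237 CPM. In every group the library or libraries high for Itgax were high for these genes as well, which follows from their choice by nearness to Itgax.

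Itgb2 deviated the same way as Itgax within every group, though less: its highest library in each group was one of those above the gap, as cHet control 1 was at 793 CPM against 558 and 589 CPM. Itgam did not: in each group its lowest library was one of those, at 138 CPM (cHet control 1), 174 CPM (cHet Pg 2), 154 CPM (cKO control 1) and 153 CPM (cKO Pg 1). Itga9 was also highest in them, at 32.3 CPM in cHet control 1 against 17.9 and 18.9 CPM in its group mates. Ccr2, 1 of 5 monocyte markers, ran the other way, at 51.6 CPM in cHet control 1 against 96.3 and 92.6 CPM. The sum of the 5 markers did not do so in every group. It was lowest in cHet control 1 (251 CPM) and cKO control 1 (250 CPM) of their groups. In cHet Pg it was higher in libraries 2 and 3 (312 and 307 CPM) than in 1 (263 CPM). In cKO Pg it was 309 and 233 CPM in libraries 1 and 2 against 277 CPM in 3. Itgal and Itgb7 did not run with or against Itgax in all groups. As 1 control and 2 Pg libraries of each genotype were high for Itgax, the division is not balanced between the groups compared, and its part in the Pg differences of Itgb2 and Itgam was not tested beyond leaving out single libraries. Without cHet control 1, the only cHet control high for Itgax, the Itgb2 difference in cHet was 0.71 (adjusted p = 0.000233, edgeR). This was the top of its leave-one-out range given above. It comes from a leave-out that makes the division less balanced, not more.

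**Figure D4:**
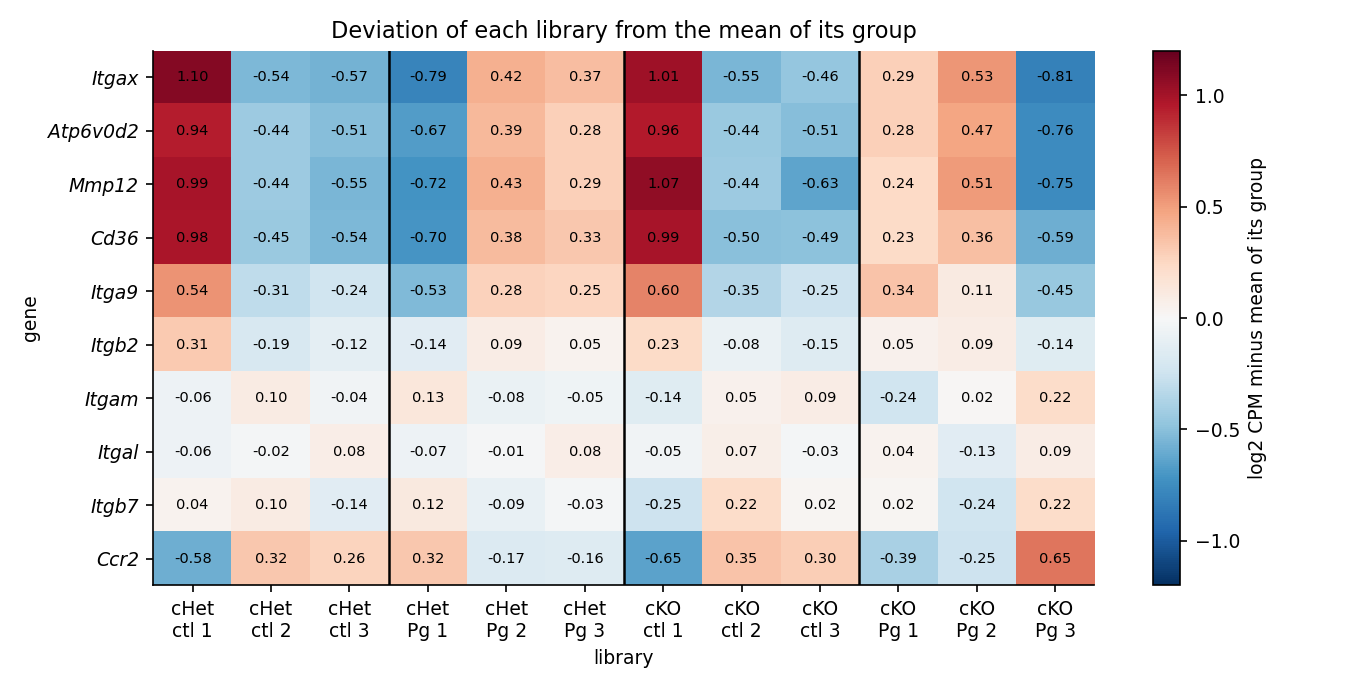
Deviation of each library from the mean of its group (log2 CPM) for the members, the 3 genes nearest to Itgax, Itga9 and Ccr2. Columns are libraries, vertical lines separate the groups, and red is above and blue below the group mean. Itgax, Atp6v0d2, Mmp12, Cd36, Itga9 and Itgb2 share their sign in every library, Ccr2 has the opposite sign in all 12, and Itgal stays within 0.13 of 0.

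For the other members the nearest profiles were closer in absolute terms because they vary less. For Itgb2 they were Gpr137b-ps (RMS 0.060, a pseudogene whose reads may belong to its parent gene), Cd300ld (0.063) and Xylt1 (0.072), against an RMS of 0.301 for Itgb2 about its own mean. For Itgal they were Tgs1 (0.071), Pfkl (0.088) and Pwwp2a (0.098), against 0.338. Those of Itgam were Tmem123 (0.073), Dcun1d5 (0.076) and Btf3 (0.076), against 0.185, and those of Itgb7 were Trip10 (0.116), Med21 (0.122) and Zfp217 (0.127), against 0.270. No member was among the 3 nearest genes of another.

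Around the members, 63 genes of the same pathway were listed, and 54 of these were tested. With Pg, 27 were called higher and 5 lower in cHet (median log2 0.27), and 21 higher and 6 lower in cKO (median 0.16), beside 18% and 18%, and 16.9% and 17.1%, of all genes. Between genotypes 5 were higher and 9 lower in cKO among controls (median -0.02), and 0 higher and 5 lower under Pg (median -0.06), beside 2.13% and 3.02%, and 0.652% and 1.2%, of all genes. The lists were chosen with earlier results of these data known. The counts here and below therefore describe the listed genes and are no test of the pathway.

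Among ligands of beta2 integrins, 2 of 6 tested genes rose with Pg in both genotypes and none fell. Of all genes, 18% rose and 18% fell in cHet, and 16.9% and 17.1% in cKO. Icam1, the main ligand of LFA-1, rose by a log2 value of 0.27 ± 0.06 in cHet (adjusted p = 0.00249, edgeR) and 0.35 ± 0.06 in cKO (adjusted p = 0.000281), and C3, the source of the complement fragment bound by Mac-1, by 0.47 ± 0.10 and 0.27 ± 0.09. Between genotypes the 2 went apart among controls, Icam1 lower in cKO by -0.27 ± 0.06 (adjusted p = 0.0168) and C3 higher by 0.49 ± 0.09 (adjusted p = 0.00591). The C3 call with Pg in cKO was kept only without cKO Pg 2 (adjusted p up to 0.162 otherwise), and the Icam1 call among controls was lost without cHet control 2 or 3 or cKO control 1 (up to 0.0829). Of 3 tested ligands of beta7 integrins, Vcam1 was called. It measured 74.9, 60.2 and 77.1 CPM in cHet controls, 136, 164 and 156 CPM in cHet Pg, 46.7, 34.6 and 35.7 CPM in cKO controls and 98.8, 93.7 and 84.7 CPM in cKO Pg, so that Pg libraries were the higher in each genotype and cKO the lower in each state. Its log2 differences were 1.11 ± 0.12 and 1.24 ± 0.12 with Pg in cHet and cKO, and -0.86 ± 0.12 and -0.72 ± 0.12 with genotype in controls and under Pg. Of all genes, 2.13% were higher and 3.02% lower in cKO among controls, and 0.652% and 1.2% under Pg. The summed stromal markers were lower in cKO too (above), and their part in the Vcam1 difference was not tested.

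Among genes of inside-out activation, 8 of 15 tested rose and 1 fell with Pg in cHet, and 7 rose and 0 fell in cKO. Of all genes, 18% rose and 18% fell in cHet, and 16.9% and 17.1% in cKO. Cytip binds cytohesin-1 and restrains adhesion through LFA-1, but was counted in this list and not among the restraining genes below. It rose most of the 15, by 1.91 ± 0.15 in cHet (adjusted p = 7.79e-08, edgeR) and 2.55 ± 0.15 in cKO (adjusted p = 3.75e-09), from 7.70 to 11.2 CPM in controls to 33.0 to 55.2 CPM under Pg. Its target Cyth1 rose by 0.79 ± 0.08 and 0.89 ± 0.08, and the GTPase gene Rap1b by 0.60 ± 0.06 and 0.42 ± 0.06. Rap1a rose by 0.48 ± 0.07 in cHet and 0.27 ± 0.07 in cKO (adjusted p = 0.00828, edgeR). Rassf5, the Rap1 effector RAPL, was the gene that fell in cHet (-0.51 ± 0.08). Fermt3, encoding kindlin-3, rose in cKO (0.28 ± 0.06, adjusted p = 0.000841) and measured 0.10 ± 0.06 in cHet (adjusted p = 0.186). Between genotypes 0 of the 15 were higher and 2 lower in cKO, in controls (2.13% and 3.02% of all genes) and under Pg (0.652% and 1.2%). Fermt2, encoding kindlin-2, was among them in both states and was barely counted: 23, 22 and 8 counts in cHet controls and 24, 16 and 14 in cHet Pg, against 0, 0 and 3 in cKO controls and 2, 1 and 0 in cKO Pg (adjusted p = 0.00639 and 0.00878, edgeR). Under Pg this call was lost without cKO Pg 2 (adjusted p = 0.0534). The stromal markers moved the same way, and their part was not tested. The others were Rassf5 among controls (-0.34 ± 0.08, adjusted p = 0.0196) and Apbb1ip, the Rap1 effector RIAM, under Pg (-0.28 ± 0.07, adjusted p = 0.0353). The Rassf5 call was lost without cHet control 2 or 3 or cKO control 2 or 3 (adjusted p up to 0.105), and the Apbb1ip call was kept only without cKO Pg 3 (up to 0.154 otherwise).

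Of genes that restrain integrin activation, 1 of 6 rose and 2 fell with Pg in each genotype. Of all genes, 18% rose and 18% fell in cHet, and 16.9% and 17.1% in cKO, so the 1 that rose is near that share. Flna, which competes with talin for the beta chain, rose by 0.36 ± 0.07 and 0.20 ± 0.07. Sipa1, a Rap1 GTPase-activating protein, fell by 0.57 in cHet (SE 0.07) and by 0.23 in cKO (SE 0.07). The second gene that fell was Rasa3 in cHet (-0.26 ± 0.08, adjusted p = 0.021, edgeR) and Sharpin in cKO (-0.22 ± 0.07, adjusted p = 0.0237). Calls were lost for Rasa3 without cHet control 1 or cHet Pg 1 (adjusted p up to 0.0999), for Sharpin without cKO control 1 or cKO Pg 1 (up to 0.107), for Sipa1 in cKO without cKO control 3 or cKO Pg 2 (up to 0.0605), and for Flna in cKO in all leave-outs but that of cKO Pg 2 (up to 0.078). Among controls Rap1gap (-1.11 ± 0.24, adjusted p = 0.0104) and Sipa1 (-0.25 ± 0.06, adjusted p = 0.0304) were lower and Flna higher (0.24 ± 0.07, adjusted p = 0.0412) in cKO. These were lost for Rap1gap without cHet control 3 or cKO control 2 (up to 0.0524), and for Sipa1 and Flna without any 1 control library but cHet control 1 (up to 0.117 and 0.168).

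Among genes of outside-in signalling, 9 of 14 rose and 0 fell with Pg in cHet, and 4 rose and 3 fell in cKO. Of all genes, 18% rose and 18% fell in cHet, and 16.9% and 17.1% in cKO. Syk, the kinase downstream of beta2 integrins, rose by 0.44 ± 0.06 in cHet and 0.41 ± 0.06 in cKO, the adaptor Lcp2 (SLP-76) by 0.54 ± 0.07 and 0.58 ± 0.07, and Pxn (paxillin) by 0.51 ± 0.06 and 0.59 ± 0.06, all called. The Src-family kinase gene Lyn rose by 0.49 ± 0.06 in cKO (adjusted p = 1.24e-05, edgeR). It was higher under Pg without overlap in cHet too, at 338 ± 12.7 against 248 ± 7.50 CPM in controls (SD, n = 3). Vav1, Fgr and Cblb were lower under Pg in cKO without overlap. Their means were 264 against 318 CPM, 32.5 against 43.7 CPM and 35.1 against 52.2 CPM in controls. Among controls Vav3 (0.38 ± 0.06, adjusted p = 0.00145) and Fgr (0.52 ± 0.12, adjusted p = 0.0169) were higher in cKO, the latter not without cHet control 2 or 3 or cKO control 1 (up to 0.0735). The tyrosine kinase gene Src and the ubiquitin ligase gene Cblb were the 2 of 54 pathway genes with a called interaction, beside 0.717% of all genes. Src measured 30.4, 25.3 and 27.0 CPM in cHet controls, 47.9, 48.1 and 52.0 CPM in cHet Pg, 30.8, 25.4 and 26.1 CPM in cKO controls and 29.0, 32.4 and 33.6 CPM in cKO Pg. The 3 cHet Pg libraries thus stood above all the others. Src rose in cHet by 0.84 ± 0.09 (adjusted p = 1.89e-06) and its change in cKO, 0.21 ± 0.09, was not called (adjusted p = 0.106). Under Pg it was lower in cKO by -0.64 ± 0.09 (adjusted p = 0.000602). The interaction calls were fragile: that of Src (-0.63 ± 0.13, adjusted p = 0.0333) was lost in 8 of 12 leave-outs, kept only without cHet control 1, cHet Pg 1, cKO control 2 or cKO Pg 3, and that of Cblb (-0.63 ± 0.14, adjusted p = 0.047) in 10 of 12, kept only without cHet Pg 1 or cKO control 1.

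Among transcription factors listed as candidates for the beta2 integrin genes, 6 of 8 rose and 1 fell with Pg in cHet, and 6 rose and 0 fell in cKO. Of all genes, 18% rose and 18% fell in cHet, and 16.9% and 17.1% in cKO. Runx1 rose by 0.87 ± 0.07 in cHet (adjusted p = 7.26e-08, edgeR) and 0.76 ± 0.07 in cKO, Cebpb by 1.05 ± 0.08 and 1.33 ± 0.08, and Klf4 by 1.02 ± 0.18 and 1.22 ± 0.18. Spi1, encoding PU.1, rose less, by 0.24 ± 0.06 and 0.15 ± 0.06. Zeb2 rose by 0.37 ± 0.06 in cHet and Runx3 by 0.89 ± 0.16 in cKO. Both were also among the 6 called higher in the other genotype. Means of Zeb2 in cKO were 553 CPM in controls and 634 CPM under Pg. Those of Runx3 in cHet were 7.07 CPM in controls and 11.3 CPM under Pg. Irf8 was the factor that fell in cHet (-0.41 ± 0.07, adjusted p = 9.78e-05) and measured -0.15 ± 0.07 in cKO (adjusted p = 0.086). Between genotypes Cebpb and Irf8 were lower in cKO controls, by -0.43 ± 0.08 and -0.35 ± 0.07, and Zeb2 higher by 0.29 ± 0.06. These are 2 lower and 1 higher of the 8, beside 3.02% and 2.13% of all genes. Under Pg 0 of the 8 were called between genotypes, beside 1.85% of all genes.

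**Figure D5:**
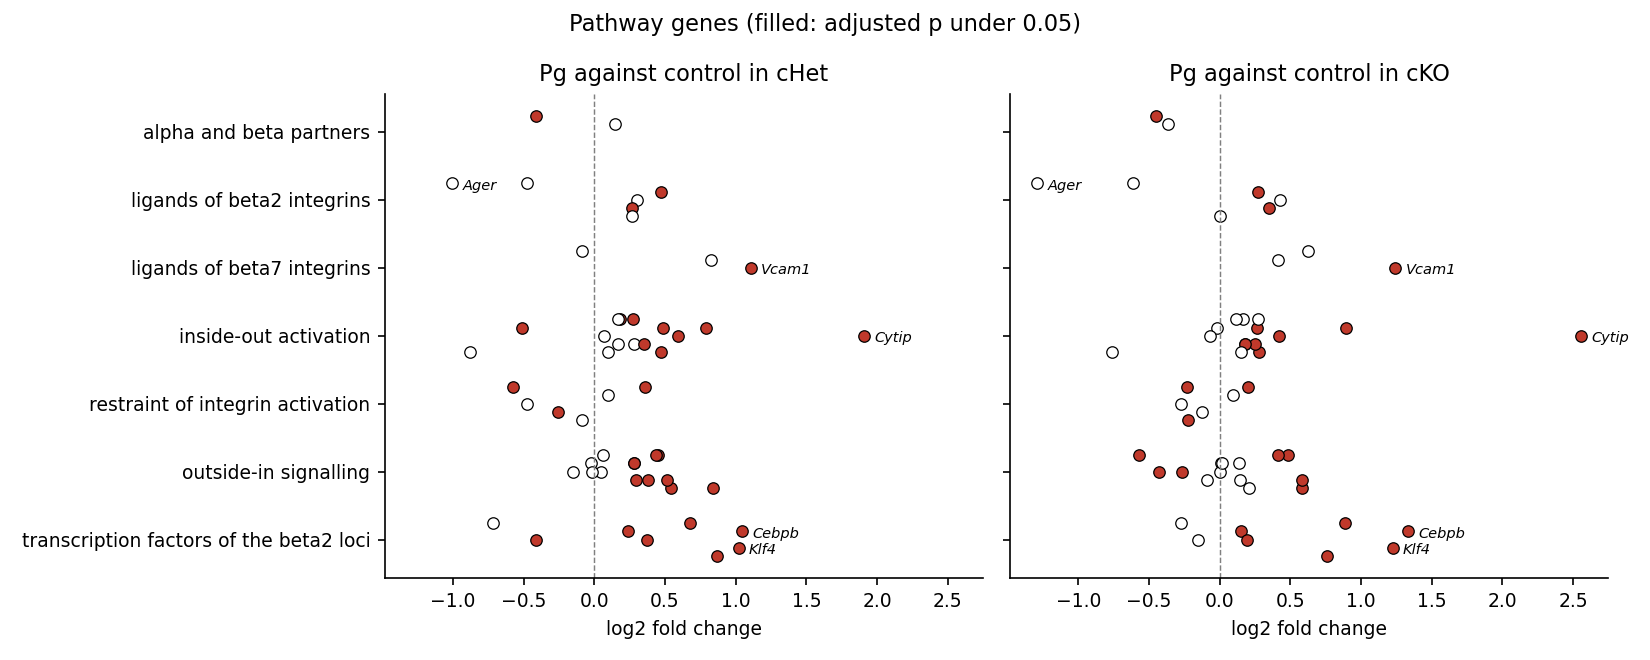
Log2 fold change with Pg of each tested pathway gene, by list, in cHet (left) and cKO (right). Each point is a gene, filled where the adjusted p was under 0.05, and genes beyond 1 log2 unit are named. Most filled points lie to the right of 0 in both panels, with Cytip farthest out at 1.91 and 2.55.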

How the data were processed

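RNA of 12 libraries was analysed from the raw read counts per gene that the authors deposited, in 1 table with a column per library. Per the submitters' processing notes, reads were handled with fastp, HISAT2 2.0.5 and featureCounts 1.5.0-p3 on mm10. Not given in the sources used here are the gene annotation, whether counting used strand, and how multi-mapping reads were treated. The gene lengths used for CPM per kb are those in the deposited table.

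Counts were tested in R 4.3.3 with edgeR 4.0.16: filterByExpr kept 13800 of 54532 genes, libraries were scaled by TMM, and the 12 libraries were fitted together, each group with its own mean, and tested by robust quasi-likelihood F tests. Benjamini-Hochberg adjustment ran over all 13800 genes of a comparison, and an adjusted p under 0.05 was a call. The SE was taken as the size of the log2 fold change divided by the root of F. Scripts were tested on simulated data. Pairs of libraries of 1 group differed by a chi-square per gene of 2.59 to 17.2, so none was counted as a repeat. The 5 members and the lists of pathway and marker genes were chosen with earlier results of these data known. Pathway genes could be named if past the threshold, in order of p, up to 4 per list and comparison; fill-up by mean expression was not used. Some were named after their values were seen: Spi1, Klf4, Rassf5, Lyn and Runx3 in cHet, and Spi1, Rap1a, Zeb2, Vav1, Fgr and Cblb in cKO. The same holds for 3 uncalled values, Fermt3 in cHet and Irf8 and Src in cKO. The 3 nearest profiles of each member come from tested genes with a mean of at least 10 CPM. Alternatives were DESeq2 1.42.0 size factors and Wald test, library size alone, other low-count filters, only the groups compared, the replicate number as a block, and each library left out. The summed level of the macrophage marker list is not reported here.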

Additional observations from a re-analysis of the deposited data

Results flagged for a closer look

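In 2 pathway genes the response to Pg differed between the genotypes by the interaction test. Src, a tyrosine kinase of outside-in signalling, had an interaction of -0.63 ± 0.13 on the log2 scale (adjusted p = 0.0333, edgeR), with the rise in cHet (27.6 to 49.3 CPM, group means) not matched in cKO (27.5 to 31.7 CPM). With 1 library left out, its adjusted p lay between 0.0176 and 0.107, and it exceeded 0.05 without cHet control 2 or 3, cHet Pg 2 or 3, cKO control 1 or 3, or cKO Pg 1 or 2. Cblb, a ubiquitin ligase, had an interaction of -0.63 ± 0.14 (adjusted p = 0.047), with 43.6 and 45.5 CPM in cHet control and Pg and 52.2 and 35.1 CPM in cKO control and Pg. Its adjusted p lay between 0.00333 and 0.158 with 1 library left out and remained under 0.05 only without cHet Pg 1 or cKO control 1.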

How the results depend on the processing

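The 5 members were recomputed in 440 alternatives over the 6 comparisons: 412 kept their side of the threshold, 25 lost a call, 3 gained one and 0 called differences reversed, while differences that were not called changed sign in places (Itgax among controls from -0.53 to 0.96). Beyond the values given with the results, the Itgal calls between genotypes were lost when only the groups compared were fitted (adjusted p = 0.0591 in controls and 0.0781 under Pg), and the Itgb2 calls with Pg without a low-count filter (adjusted p = 0.0504 in cHet and 0.0756 in cKO). On library size alone, 19.1% of the calls with Pg in cHet were higher against 50% with TMM, and 18.7% against 49.7% in cKO, and Flna in cKO turned to -0.044 (adjusted p = 0.6). The cause was not tested. Without a low-count filter the genes called numbered 1101 among controls, 507 under Pg, 1102 for the average genotype difference and 389 for the interaction, and DESeq2 called 259 for the interaction (main counts 711, 255, 677 and 99). With 1 library left out, the counts lay between 4102 and 4689 for Pg in cHet, 3838 and 4460 for Pg in cKO, 319 and 591 among controls, 153 and 259 under Pg, 499 and 715 for the average and 42 and 207 for the interaction. Replicate numbers pair nothing in the labels: of 18 same-numbered pairs across groups 3 correlated above 0.1, and a library resembled its own number best in 9 of 36 cases. With the replicate block the counts were 4723, 4448, 549, 220, 581 and 70 in the order of the comparisons above, the Itgal difference in controls was 0.25 (adjusted p = 0.0601), the Src interaction was -0.63 (adjusted p = 0.0591), and no other call of a member changed. The Cblb interaction was lost on library size alone (-0.63, adjusted p = 0.0643). With 3 libraries per group, depth limits Itgad and Itgae, and the spread between libraries limits Itgax.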
